A study of Mus musculus with 17 samples.

Results

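Skin of irradiated mice at day 9 after injury was compared with skin of irradiated mice at day 3, which gives the course of the wound between these days in tissue that had all received radiation. The comparison took 6 of the 17 libraries of the series, 3 per day, and tested the genes with an FPKM (fragments per kilobase of gene, scaled to the size of the library) of at least 1 in at least 2 of these 6 libraries. This left 14099 of the 34140 genes in the deposited table. All libraries come from skin of C57/BL6j mice. Those of the irradiated groups carry the treatment label ionizing radiation and a time of 3, 6 or 9 days, and those of the control groups carry the label control with a time of 0, 3, 6 or 9 days. The labels state neither dose and field of the radiation nor sex and age of the mice, nor where the wound was or how large. The series was set up to find molecules that take part in wound healing after radiation, and its title names TGF-β1 and SMAD signalling. Control skin at day 3 (2 libraries) and day 9 (3 libraries) and irradiated skin at day 6 (2 libraries) are given beside the comparison where they help to place it.

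A skin wound passes through overlapping phases. Platelets and neutrophils arrive first, macrophages and interferon and cytokine signals follow, keratinocytes migrate and close the surface, and fibroblasts then lay down collagen while hair follicles resume growth. Ionizing radiation breaks DNA, which activates p53 and its target genes, holds back cell division, and can also lead to type I interferon signalling.

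The 6 libraries held 27404044 to 30797409 recovered fragments, with mitochondrially encoded genes at 8.33% to 9.28% of summed FPKM. Pearson's r across genes ranged from 0.984 to 0.991 among the day 3 libraries and from 0.975 to 0.99 among those of day 9. The first principal component of the 6 libraries (55.5% of the variance) separated the days. The second (20.6%) set day 9 replicate 1 apart at -28.6, against 12.5 and 14.6 for the other day 9 libraries. As a check of the tissue label, the basal keratin gene Krt5 stood between 1148 and 1619 FPKM, the suprabasal keratin gene Krt10 between 347.2 and 1367 and the dermal collagen gene Col3a1 between 617.7 and 1645 in these libraries. The labels do not say that the libraries of a group came from separate animals, so p-values measure the spread between these samples. In RNA from whole skin, fewer cells of a type and less RNA per cell cannot be told apart.

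Between days 3 and 9 the transcripts of 3 hair sheath keratins, 3 globins, several epidermal proteases and envelope proteins, and single matrix and growth factor genes rose. Those of the platelet gene Ppbp and of several muscle and interferon-induced genes fell. So did those of the decoy receptor gene Il1r2, the cytokine gene Il10 and the acute-phase gene Lrg1. A model with 1 mean per labelled group was fitted to log2(FPKM + 1) of all 17 libraries with limma, and a gene passed when its p, adjusted by the method of Benjamini and Hochberg over the 14099 genes, was under 0.05. Of these genes 163 passed (1.16%), 65 of them higher at day 9 (0.461% of those tested) and 98 lower (0.695%), and 36 and 38 of these by at least 1 on the log2 scale. Every rise, fall or log2 change given here is a difference of mean log2(FPKM + 1), day 9 minus day 3, which understates the change of low genes. The median change of all genes was -0.02. At an unadjusted p under 0.05 (limma), 986 of the 14099 genes were higher and 1396 lower. A limma-voom fit to recovered fragments called 50 higher and 77 lower. The list counts at these thresholds given below stand against these numbers. Without regard to the test, all 3 day 9 libraries lay above all 3 day 3 libraries in 1967 genes (14%) and below them in 2596 (18.4%), together 32.4%. With day 9 replicate 1 left out these shares were 26% and 23.2%. Fits to only the 6 libraries compared called 739 genes (5.24%, 304 higher and 435 lower), and fits to the 11 libraries of days 3 and 9, added after seeing the data, called 898 (6.37%, 369 higher and 529 lower). Fewer genes passed when any 1 of the 6 libraries was left out. There were 16 without day 3 replicate 1, 27 without day 3 replicate 2 and 49 without day 3 replicate 3. There were 105 without day 9 replicate 1, 18 without day 9 replicate 2 and 68 without day 9 replicate 3. Whether the smaller groups or the values of single libraries account for this was not tested. The plot of change by level shows the called genes over the whole range of expression.

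**Figure D1:**
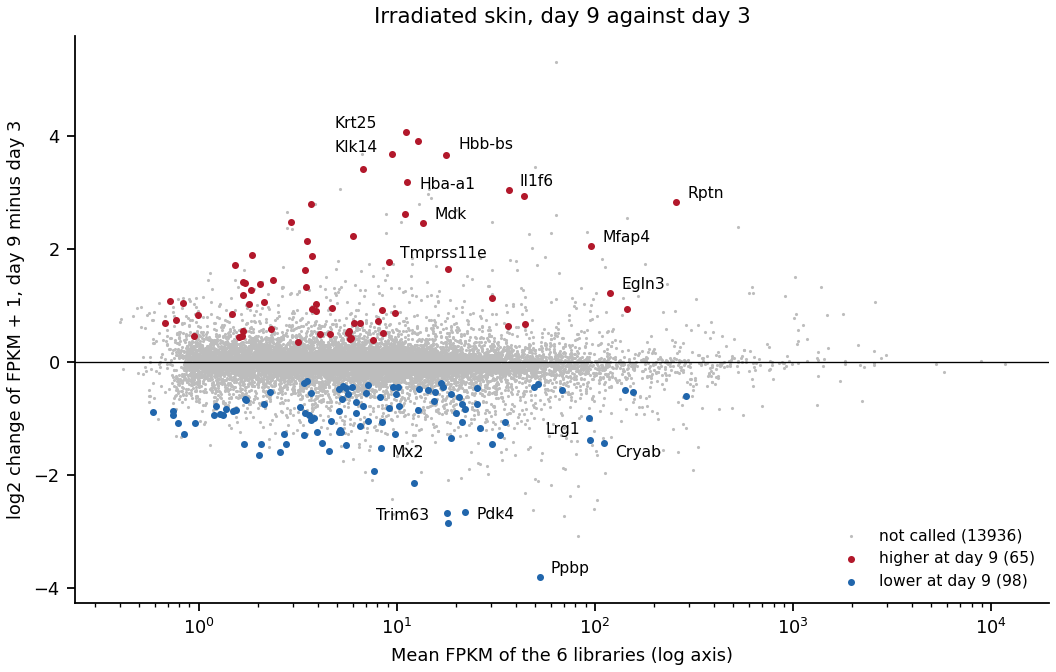
The mean FPKM of the 6 libraries (log axis) against the log2 change of FPKM + 1, day 9 minus day 3, for the 14099 genes tested in irradiated skin. The 65 genes higher at day 9 are red, the 98 lower are blue and the others grey, and the called genes reach from -3.81 for Ppbp to 4.06 for Krt25.

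The beta-globin and alpha-globin genes rose from low levels. They encode the chains of haemoglobin, and their transcripts in skin come mostly from young red blood cells in its vessels. Hbb-bs (ENSMUSG00000052305, chr7:103826534-103828096) stood at 0.676, 4.76 and 0.934 FPKM in the day 3 libraries, at 0.689 and 0.0939 in the day 6 libraries and at 43.1, 30.8 and 25.9 in the day 9 libraries. All day 9 values lay above all day 3 values, and the log2 change was 3.66 (SE 0.443, limma adjusted p 0.00478). Hba-a1 (ENSMUSG00000069919, chr11:32283511-32284465) went from 1.24, 2.73 and 0.631 to 24.4, 20.5 and 17.9 FPKM, a rise of 3.19 (adjusted p 0.00375), and Hbb-bt rose by 2.80 (adjusted p 0.00559), from a mean of 0.161 ± 0.197 to 7.25 ± 2.33 FPKM (SD, n = 3). The calls of these 3 genes held without any 1 of the 6 libraries. Fragments of such near-identical globin copies are hard to assign to 1 gene, so the values of single copies are uncertain. In control skin Hbb-bs stood at 88.7 and 122 FPKM at day 3 and 45.97, 77.3 and 111 at day 9, so the irradiated day 9 libraries lay below all 5 control libraries of these days, although they had left the level of day 3. The difference between the changes in irradiated and control skin was 4.16 for Hbb-bs, 3.59 for Hba-a1 and 3.36 for Hbb-bt. None of these passed in the fit to all libraries (adjusted p 0.0949 for each), and all passed in a fit to the 11 libraries of days 3 and 9 (adjusted p 0.0372, 0.0336 and 0.0376), which was chosen after seeing the data.

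The promoter of Hbb-bs is shown because its transcript rose most among the globins and the promoter holds a match to the motif below. It is the 250 bases before the RefSeq start on GRCm38.p6, at chr7:103827929-103828178 on the minus strand, 5′ to 3′, with the letters of the CACCC box in capitals. The motif CCACACCC, searched on both strands, is known as a binding sequence of the erythroid factor KLF1. It was found in 4.34% of the 10048 tested genes with a RefSeq promoter, in 8.51% of the 47 higher genes with one and in 5.97% of the 67 lower genes with one. No match was recorded for the called globin genes Hba-a1 and Hbb-bt, either because the promoter held none or because the gene had no RefSeq promoter. A match is a description of letters, not a site.
Hbb-bs: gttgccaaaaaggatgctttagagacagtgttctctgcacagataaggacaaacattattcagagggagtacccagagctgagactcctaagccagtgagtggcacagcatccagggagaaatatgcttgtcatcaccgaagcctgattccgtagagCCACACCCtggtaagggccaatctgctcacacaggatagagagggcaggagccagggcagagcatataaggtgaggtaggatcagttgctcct

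Interferon-induced genes, whose products block viral replication or amplify the interferon signal, had lower means at day 9 throughout the list. The log2 change was negative in all 29 tested genes of the interferon response list (30 in the table), with a median of -1.09. The day 9 libraries lay below all day 3 libraries in 22 of the 29, against 18.4% of all genes. In the fit to all libraries 1 of the 29 passed, Mx2, an antiviral GTPase gene (ENSMUSG00000023341, chr16:97535308-97560900). It stood at 15.3, 13.3 and 9.87 FPKM at day 3 and 5.14, 2.85 and 3.53 at day 9 and fell by 1.52 (SE 0.279, limma adjusted p 0.0299). At day 6 it stood at 1.23 and 3.603 FPKM, below each day 3 library, and no control library of any day exceeded 1.47. At an unadjusted p under 0.05, 20 of the 29 were lower (1396 of all 14099 genes). On recovered fragments limma-voom called 1 of the 29 lower (77 of all genes). Fits to the 6 and to the 11 libraries called 8 and 10 of them lower, where 3.09% and 3.75% of all genes were. Isg15, whose product is joined to other proteins (ENSMUSG00000035692, chr4:156199424-156200818), stood at 481, 412 and 259.6 FPKM at day 3, 40.4 and 179 at day 6 and 236, 63.5 and 125 at day 9, and missed the threshold (log2 change -1.58, adjusted p 0.216). Ifit1, whose product binds foreign RNA, stood at 174, 170.2 and 118 FPKM at day 3 and 74.3, 30.3 and 48.5 at day 9 (log2 change -1.64, adjusted p 0.135, and 0.0497 with 11 libraries). Day 9 replicate 1 was the highest of the day 9 libraries for Mx2, Isg15, Ifit1 and Rsad2, and without it 27 of the 29 genes lay lower without overlap (23.2% of all genes), 2 passed and the median was -1.34. The transcription factor gene Irf7 overlapped between days, at 149, 156 and 95.2 FPKM at day 3 and 124, 35.9 and 80.1 at day 9.

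Other genes known to be induced by interferon or by viral RNA fell too. They stand outside the list and were named after their values were seen. Daxx, a histone chaperone gene, fell by 1.16 (adjusted p 0.0114), from 44.1, 37.3 and 29.6 to 17.9, 13.9 and 15.6 FPKM. The sensor gene Tlr3, which recognises double-stranded RNA, fell by 1.06 (adjusted p 0.0185), from a mean of 11.8 ± 2.44 to 5.13 ± 1.33 FPKM (SD, n = 3). Eif2ak2, the kinase that stops translation on double-stranded RNA, fell by 0.91, and the helicase genes Helz2 and Znfx1 by 1.27 and 1.06 (adjusted p 0.0402, 0.0324 and 0.0424). None of these overlapped between days. Olfr56 fell by 1.44 (adjusted p 0.0162), from 8.42, 6.201 and 5.18 to 2.42, 1.205 and 1.77 FPKM. Its annotated span (chr11:48978889-49135387) overlaps the interferon-induced GTPase genes Tgtp1, Tgtp2 and Ifi47, so fragments of these genes could be counted there. The call of Mx2 ended without any library but day 9 replicate 1 (adjusted p 0.0501 to 0.145), as did those of Helz2 (0.0609 to 0.162) and Eif2ak2 (0.0547 to 0.181). That of Znfx1 ended without any of the 6 (0.0557 to 0.191), those of Daxx (0.0506 to 0.071) and Olfr56 (0.0544 to 0.0867) without day 3 replicate 1, day 3 replicate 2 or day 9 replicate 2, and that of Tlr3 without these or day 9 replicate 3 (0.0545 to 0.0906). Of 18 tested interferon gamma GTPase and class I genes none passed (limma, 0 at an unadjusted p under 0.05 and 0 by limma-voom), with a median of -0.46. H2-D1, the heavy chain of a class I molecule, overlapped between days (log2 change 0.21).

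Promoters are shown for 3 members of the interferon list that did not overlap between days and hold a match to the element described next. Every gene of the list had a log2 change below 0. Each is the 250 bases before the RefSeq start on GRCm38.p6, 5′ to 3′ along the gene, with matches to the interferon-stimulated response element, taken as 2 copies of GAAA with any 2 bases between them (either strand, overlapping matches joined), in capitals. They lie at chr4:156200819-156201068 on the minus strand (Isg15, 3 matches), chr19:34640639-34640888 on the plus strand (Ifit1, 2 matches) and chr12:26456453-26456702 on the minus strand (Rsad2, 1 match).
Isg15: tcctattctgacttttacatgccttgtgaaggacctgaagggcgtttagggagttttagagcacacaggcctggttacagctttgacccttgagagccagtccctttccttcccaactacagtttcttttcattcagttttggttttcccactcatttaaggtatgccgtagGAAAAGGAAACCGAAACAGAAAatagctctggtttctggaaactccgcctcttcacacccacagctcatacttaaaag
Ifit1: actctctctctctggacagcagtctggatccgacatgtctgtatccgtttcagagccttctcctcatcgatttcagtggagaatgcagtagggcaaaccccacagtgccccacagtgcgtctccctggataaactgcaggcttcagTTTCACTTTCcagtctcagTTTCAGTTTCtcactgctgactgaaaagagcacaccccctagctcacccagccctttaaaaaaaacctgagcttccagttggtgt
Rsad2: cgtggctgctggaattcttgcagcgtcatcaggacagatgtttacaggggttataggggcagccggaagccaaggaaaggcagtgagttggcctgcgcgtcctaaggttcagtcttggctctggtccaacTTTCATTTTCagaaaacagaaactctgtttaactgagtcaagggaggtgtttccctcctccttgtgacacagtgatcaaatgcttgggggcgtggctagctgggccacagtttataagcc
The element was present in 3.44% of the 10048 promoters of tested genes and in 10 of the 20 interferon list genes with a RefSeq promoter (50%). No match was recorded for Mx2, the 1 list gene that passed, either because its promoter held none or because it had no RefSeq promoter. It was present in 3 of the 67 promoters of genes that fell (4.48%) and 1 of the 47 of genes that rose (2.13%). Rsad2, whose product makes an antiviral nucleotide, stood at 129, 98.1 and 69.3 FPKM at day 3 and 32.04, 12.7 and 20.6 at day 9 (log2 change -2.18, limma adjusted p 0.0899). A match says that these letters are in the window, and no match says nothing about the factor.

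The transcripts of the platelet gene Ppbp and the interleukin-1 decoy receptor gene Il1r2 fell. Ppbp, a chemokine precursor stored in platelets (ENSMUSG00000029372, chr5:90768518-90770063), stood at 37.5, 189.7 and 68.4 FPKM at day 3, 75.6 and 11.1 at day 6 and 16.4, 2.25 and 2.28 at day 9. The groups did not overlap although day 9 replicate 1 was well above the other day 9 libraries, and Ppbp fell by 3.81 (SE 0.817, limma adjusted p 0.0487), the largest fall among the genes that passed. The neighbouring gene of platelet factor 4, Pf4, went from 327, 706 and 460.3 to 193, 104 and 98.1 FPKM (log2 change -1.91, adjusted p 0.0601, and 0.0396 with the 6 libraries alone). Of the 12 red blood cell and platelet genes of the list, 7 were high enough to test. The 3 that rose were the globins above and the 1 that fell was Ppbp. The summed FPKM of the list lay between 368.6 and 905.8 in the day 3 libraries and between 154.2 and 291.0 in the day 9 libraries. Pf4 and Ppbp held most of this sum in each of the 6 libraries, so it does not give the course of the globins, which rose. The interleukin-1 decoy receptor gene Il1r2 stood at 41.4, 42.5 and 49.4 FPKM at day 3 and 20.5, 14.7 and 12.4 at day 9 and fell by 1.45 (adjusted p 0.0498). With Ppbp it made up the 2 of 16 neutrophil-drawing chemokine and Il1 genes that passed, whose median was -1.30 and of which 9 did not overlap in the lower direction, against 18.4% of all genes (14 without day 9 replicate 1, against 23.2%). Cxcl2, which draws neutrophils, stood at 148, 72.7 and 227 FPKM at day 3 and 21.6, 13.9 and 11.4 at day 9 (log2 change -3.07, adjusted p 0.11), and Il1b, the main secreted interleukin-1, at 173, 103 and 233 at day 3 and 46.5, 29.8 and 11.8 at day 9 (log2 change -2.60, adjusted p 0.178). The days did not overlap in either gene, and neither passed.

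Neutrophil genes had changes of both signs. None of 17 passed (limma, 4 lower and 0 higher at an unadjusted p under 0.05, and 0 by limma-voom), with a median of -0.79, 2 without overlap in the higher direction and 6 in the lower (14% and 18.4% of all genes). The median was -1.32 without day 9 replicate 1 and -0.49 without day 9 replicate 3. The 2 highest-expressed, S100a8 and S100a9, the subunits of calprotectin that wound keratinocytes also make, were above all day 3 libraries at day 9. S100a8 stood at 607, 443 and 652 FPKM at day 3 and 1536, 1139 and 1122 at day 9 (log2 change 1.16, adjusted p 0.617, and 0.0308 with the 6 libraries alone). Cyp4f18, a leukotriene-degrading enzyme gene of neutrophils, fell by 1.93 (adjusted p 0.0463), from 14.6, 7.58 and 16.4 to 3.05, 2.61 and 1.88 FPKM. The acute-phase glycoprotein gene Lrg1 fell by 1.39 (limma adjusted p 0.0363), from 183, 92.1 and 139 to 41.4, 41.8 and 73.3 FPKM. The acute-phase and complement list, which does not hold Lrg1, did not follow it. None of its 14 tested genes passed, 6 had a positive and 8 a negative change, and 2 lay lower without overlap (18.4% of all genes). Its median was -0.09, and -0.22 to 0.09 without 1 library. The calls of Il1r2 (0.0584 to 0.191) and Cyp4f18 (0.0642 to 0.173) ended without any 1 of the 6 libraries. That of Ppbp ended without any but day 9 replicate 1 (0.106 to 0.205) and with the 6 libraries alone (0.0563), and that of Lrg1 without day 3 replicate 1 or 3 or day 9 replicate 1 or 2 (0.0934 to 0.168) and with the 6 libraries alone (0.0608).

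Most p53 targets had slightly lower and all mitosis genes slightly higher means at day 9, with 1 gene among them that passed. Of 29 p53 targets 26 had a negative change (median -0.28), and in 17 all day 9 libraries lay below all day 3 libraries, against 18.4% of all genes. Aen, an exonuclease gene that acts in cell death (ENSMUSG00000030609, chr7:78895854-78911209), stood at 11.3, 10.5 and 11.7 FPKM at day 3 and 7.76, 7.998 and 8.18 at day 9, with no overlap, and fell by 0.44 (SE 0.0775, limma adjusted p 0.0242). It was the 1 target that passed, and its call ended without any 1 of the 6 libraries (0.0522 to 0.116). Cdkn1a, whose product p21 stops the cell cycle, stood at 204, 207 and 204 FPKM at day 3 and 140.5, 127 and 134 at day 9. Its groups lay far apart relative to the spread within them, and its change of -0.61 missed the threshold in the fit that pools all libraries (adjusted p 0.125) and passed with the 6 libraries (0.0172) and with 11 (0.0401). Mdm2, which brings p53 down, did the same (log2 change -0.54, adjusted p 0.105, and 0.0152 with 6 libraries), from 21.5 ± 0.391 to 14.5 ± 0.432 FPKM (SD, n = 3). Ccng1 had a log2 change of -0.48 (adjusted p 0.0818). With 6 and with 11 libraries 6 targets were called lower in each fit, where 3.09% and 3.75% of all genes were. In control skin the list of p53 targets had a median of -0.26, with 3 of 29 lower (10.7% of all genes). The median difference between the irradiated and control changes was -0.0018. Cdkn1a was at 114 and 90.5 FPKM in control skin at day 3 and 51.9, 54.3 and 77.1 at day 9. The irradiated day 9 libraries thus lay above every control library of both days.

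All 28 mitosis genes had a positive change between days 3 and 9, of 0.03 to 0.55 with a median of 0.28, and 19 did not overlap in the higher direction (14% of all genes). None passed (limma, 10 higher at an unadjusted p under 0.05 and 0 by limma-voom), and 8 were called higher with the 6 libraries alone and 4 with 11, where 2.16% and 2.62% of all genes were. The proliferation marker Mki67 stood at 12.95, 11.6 and 12.1 FPKM at day 3, 9.400 and 12.1 at day 6 and 16.96, 19.6 and 18.6 at day 9 (log2 change 0.55, adjusted p 0.135). The topoisomerase gene Top2a stood at 12.6, 11.7 and 11.5 FPKM at day 3 and 15.3, 17.1 and 15.5 at day 9 (log2 change 0.39, adjusted p 0.256). The kinase gene Aurkb and the 2 most abundant of the list, Cdc20 and Ccnb2, had log2 changes of 0.32, 0.19 and 0.39. In control skin Mki67 stood at 22.3 and 22.4 FPKM at day 3 and 19.8, 17.9 and 13.5 at day 9 (log2 change -0.38, limma adjusted p 0.193). The list had a median of -0.40 there, with 6 of 28 lower (10.7% of all genes). The difference between the changes passed for 9 of the 28 in the fit to 11 libraries, Mki67 among them (difference 0.93, adjusted p 0.0459), and for none in the fit to 17 (limma, 0.219 for Mki67). Of 25 DNA replication genes none passed (limma, 2 higher at an unadjusted p under 0.05 and 0 by limma-voom), with a median of 0.08. Stmn1, a microtubule regulator of dividing cells that is in neither list, rose by 1.14 (adjusted p 0.0231), from 20.6, 17.5 and 17.3 to 33.9, 45.7 and 46.96 FPKM, a call that ended without any library but day 9 replicate 1 (0.0723 to 0.111).

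**Figure D2:**
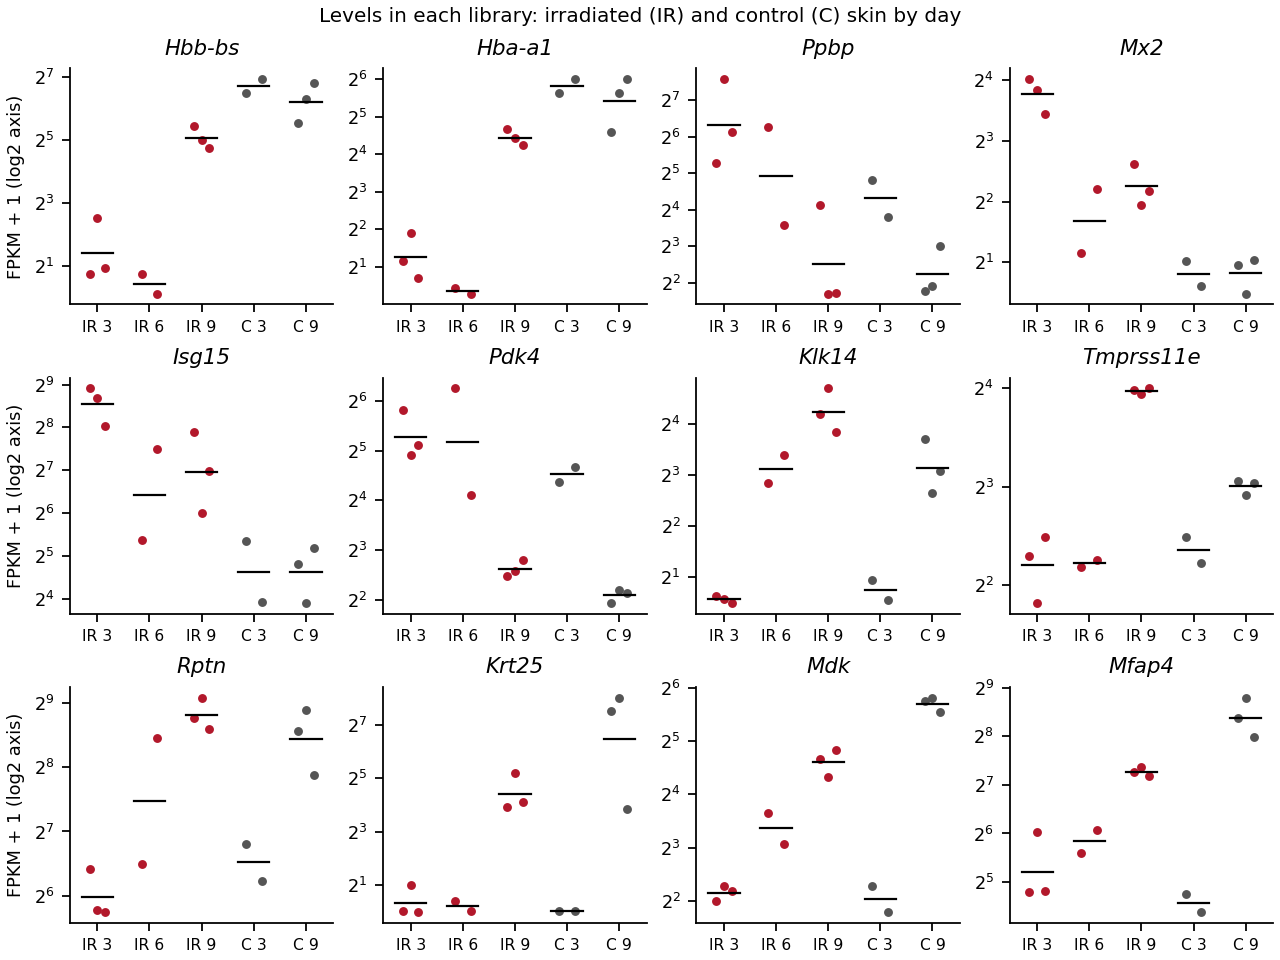
FPKM + 1 (log2 axis) of 12 genes in each library of irradiated (IR, red) and control (C, grey) skin at days 3, 6 and 9, with 1 point per library and a bar at the mean of the log2 values (control at days 3 and 9 only). The globins at IR 9 lie far above IR 3 and IR 6 and within or below the range of the control libraries, while Mx2 and Isg15 are highest at IR 3.

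Proteases, cornified layer proteins and a skin cytokine of the epidermis rose. Klk14 (ENSMUSG00000044737, chr7:43690418-43695536), a serine protease that frees dead surface cells, had the lowest p of all genes. It stood at 0.536, 0.484 and 0.403 FPKM at day 3, 6.16 and 9.53 at day 6 and 17.2, 25.00 and 13.3 at day 9, so each later day lay above the earlier, and it rose by 3.68 (SE 0.265, limma adjusted p 0.000103). The membrane protease gene Tmprss11e (ENSMUSG00000054537, chr5:86705186-86745815) stood at 3.92, 2.54 and 4.62 FPKM at day 3, 3.56 and 3.78 at day 6 and 14.8, 14.4 and 14.96 at day 9. Its day 9 values were close to each other and apart from both earlier days, with a rise of 1.77 (SE 0.151, adjusted p 0.000366). In control skin it rose by 0.64, to 7.34, 6.52 and 7.21 FPKM, and the difference of 1.12 passed in the fit to 11 libraries (adjusted p 0.0482) but not in that to 17 (0.181). Its neighbour on the chromosome, Tmprss11b, rose by 1.64 (adjusted p 0.0107).

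Rptn encodes repetin of the cornified envelope (ENSMUSG00000041984, chr3:93393699-93399442). It stood at 84.5, 53.97 and 52.8 FPKM at day 3 and 433, 539.9 and 386 at day 9 and rose by 2.83 (adjusted p 0.0114). It was the 1 of 34 tested differentiated keratinocyte genes (35 in the table) that passed. The list had a median of 0.40, with 13 without overlap in the higher direction and 1 in the lower (14% and 18.4% of all genes). Without day 9 replicate 1 these were 26 and 1 (26% and 23.2% of all genes). The median was 0.57 without that library and 0.22 without day 9 replicate 2. Day 9 replicate 1 was the lowest day 9 library for Krt10, the keratin of suprabasal cells (444, 1367 and 922 FPKM at day 9 against 347, 361 and 352 at day 3, adjusted p 0.363), and for filaggrin, Flg (20.8, 49.8 and 32.6 against 11.04, 10.04 and 10.97, adjusted p 0.196). Sprr2b, a small proline-rich protein gene of the envelope, had the highest log2 change of all genes tested, 5.32, without passing (adjusted p 0.115). It stood at 2.82, 1.52 and 2.27 FPKM at day 3 and 131, 132 and 112 at day 9 but at 101 and 27.4 in the day 6 libraries and 3.86, 0.907 and 249 in the control day 9 libraries, and it passed with the 6 libraries alone (adjusted p 0.000166). Its relative Sprr3 rose by 1.89 (adjusted p 0.0242), from 0.399, 0.0838 and 0.02795 to 5.64, 2.98 and 2.02 FPKM.

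Il1f6, the gene of interleukin-36 alpha (ENSMUSG00000026984, chr2:24215418-24225702), a cytokine that keratinocytes release, stood at 8.16, 6.07 and 6.498 FPKM at day 3, 27.3 and 39.2 at day 6 and 42.6, 92.8 and 65.03 at day 9 and rose by 3.04 (SE 0.354, adjusted p 0.00375). It was the 1 of 20 wound-activated keratinocyte genes that passed, in a list whose median was 0.13 and ran from -0.11 without day 3 replicate 2 to 0.29 without day 3 replicate 3. In control skin Il1f6 rose by 2.47, and the difference of 0.57 did not pass (adjusted p 0.659). The protease inhibitor gene Serpinb12 rose by 2.93 (adjusted p 0.0324), from 9.33 ± 0.23 to 79.1 ± 18.4 FPKM (SD, n = 3). The calls of Klk14, Tmprss11e, Tmprss11b and Il1f6 held without any 1 of the 6 libraries. That of Rptn ended without day 3 replicate 2 (0.0521) or day 9 replicate 2 (0.0701), that of Sprr3 without any but day 9 replicate 3 (0.0577 to 0.0947) and that of Serpinb12 without any of the 6 (0.0646 to 0.151).

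Keratins of the inner root sheath, the layer that guides the growing hair, came up from near 0. Krt25 (ENSMUSG00000035831, chr11:99315516-99322951) stood at 0.0163, 0.996 and 0 FPKM at day 3, 0.319 and 0.0363 at day 6 and 14.1, 35.7 and 16.1 at day 9, a rise of 4.06 (SE 0.841, limma adjusted p 0.0421). Krt71 rose by 3.92 (adjusted p 0.0491), from 0.134, 1.92 and 0.0782 to 15.3, 44.1 and 15.9 FPKM, and Krt28 by 3.42 (adjusted p 0.0498). Krt73, another sheath keratin, had a log2 change of 3.68 and just missed the threshold (adjusted p 0.0501). Of the 30 deposited hair follicle genes 18 were high enough to test. Of these 3 passed, all rises, 13 did not overlap in the higher direction (14% of all genes), and 11 were called higher with the 6 libraries alone (2.16% of all genes). Their median was 1.30, and over all 30 genes with no filter it was 0.39. A gene that is high only at day 9 passes the filter on low values through that day. In control skin Krt25 reached 182, 257 and 13.5 FPKM at day 9. The list had a median of 1.71 there, with 9 higher and 1 lower (7.36% and 10.7% of all genes). Control day 9 replicate 3 stood far below the other control day 9 libraries in Krt25, Krt71 and Krt28, within or below the range of the irradiated day 9 libraries. The calls of Krt25 (0.0725 to 0.187), Krt71 (0.0817 to 0.205) and Krt28 (0.0725 to 0.202) each ended without any 1 of the 6 libraries.

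Most sebaceous gland genes had lower means at day 9. Dgat2l6, an acyltransferase gene of lipid synthesis, fell by 0.88 (limma adjusted p 0.0487), from 2.26, 2.09 and 2.298 to 0.477, 1.15 and 0.698 FPKM, and was the 1 of 12 tested genes of that list that passed, with 8 of 12 below without overlap (18.4% of all genes) and a median of -0.52 (-0.27 without day 9 replicate 1). In control skin the list had a median of -2.17 and all 12 were lower (10.7% of all genes). The call of Dgat2l6 ended without any 1 of the 6 libraries (0.089 to 0.165).

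Most matrix genes of the dermis had higher means at day 9, and 1 of them passed. Mfap4 (ENSMUSG00000042436, chr11:61485431-61488900), a partner of elastic fibres, stood at 26.8, 64.1 and 27.2 FPKM at day 3 and 153, 163 and 143 at day 9. The groups did not overlap, and it rose by 2.05 (SE 0.426, limma adjusted p 0.0421). It was the 1 of 27 fibrillar collagen and matrix structure genes that passed, while 15 were higher at an unadjusted p under 0.05, 17 did not overlap in the higher direction (14% of all genes) and the median was 0.89. Col1a1, the main collagen of skin, stood at 658, 1059 and 638 FPKM at day 3 and 2829, 1846 and 1328 at day 9 (log2 change 1.32, adjusted p 0.207), and Col12a1, which coats collagen fibrils, at 15.7, 16.8 and 12.8 at day 3 and 114, 55.2 and 25.02 at day 9 (log2 change 1.79, adjusted p 0.0945). Replicate 1 was the highest of the day 9 libraries for both and replicate 3 the lowest. With 11 libraries 12 of the 27 were called higher and with 6 libraries 5, where 2.62% and 2.16% of all genes were.

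In control skin the same list had a median of 2.11, with 21 of 27 higher (7.36% of all genes). Col1a1 went there from 669 and 316 to 3621, 3741 and 2896 FPKM (2.88, limma adjusted p 0.00622). None of the 27 differed between irradiated and control skin in the fit to 17 libraries and 1 did in that to 11 (limma), which was the proteoglycan gene Lum, with a log2 change of 0.39 in irradiated and 1.94 in control skin (difference -1.55, adjusted p 0.0317). Aspn, another small proteoglycan gene of the same family that is not in the list, differed by -2.40 (adjusted p 0.0372 with 11 libraries, 0.219 with 17). Tnn, the gene of tenascin-W of hair follicles and stroma, rose by 2.63 (adjusted p 0.0487) in irradiated skin, from 1.64, 1.896 and 1.39 to 36.03, 20.5 and 4.41 FPKM, against 5.31 in control skin, whose day 9 libraries held 82.6, 79.2 and 83.4 FPKM. Of 22 collagen processing genes none passed (limma, 3 higher at an unadjusted p under 0.05 and 0 by limma-voom), with a median of 0.29 against 1.15 in control skin. That median was 0.04 without day 9 replicate 1 and 0.50 without day 9 replicate 3. The call of Mfap4 ended without any library but day 3 replicate 2 (0.0913 to 0.172), and that of Tnn without any but day 9 replicate 3 (0.108 to 0.198) and with the 6 libraries alone (0.0727).

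The TGF-β pathway acts through ligands that bind the receptors Tgfbr2 and Tgfbr1, which phosphorylate Smad2 and Smad3. These join Smad4 to switch on target genes, and Smad7 holds the pathway back. The ligand gene of the title, Tgfb1 (ENSMUSG00000002603, chr7:25687002-25705077), stood at 16.9, 19.3 and 20.2 FPKM at day 3, 28.3 and 14.5 at day 6 and 20.4, 16.4 and 17.7 at day 9. The days overlapped, and its log2 change was -0.05 (SE 0.264, limma adjusted p 0.95). Tgfb2 went from 1.86, 2.22 and 1.92 to 4.41, 3.82 and 2.85 FPKM (log2 change 0.63, adjusted p 0.0739) and Tgfb3 from 5.12, 7.44 and 5.66 to 11.1, 12.1 and 11.7 (log2 change 0.85, adjusted p 0.121). Neither overlapped between days, and both passed with 11 libraries (adjusted p 0.0274 and 0.0232) but not with 17. In control skin the same contrast was 1.45 for Tgfb2 and 1.27 for Tgfb3, and the difference of -0.81 for Tgfb2 did not pass (adjusted p 0.219, and 0.0622 with 11 libraries). Among the receptors the log2 change was 0.18 for Tgfbr1, 0.03 for Tgfbr2 and -0.30 for the coreceptor gene Tgfbr3. Among the SMADs it was 0.04 for Smad2, -0.06 for Smad3, 0.02 for Smad4 and 0.18 for Smad7. None of these 7 passed in the fit to 17 libraries, with adjusted p from 0.558 for Tgfbr3 to 0.97 for Tgfbr2. Tgfbr3 lay lower without overlap, at 23.7, 26.6 and 26.2 FPKM at day 3 and 21.1, 19.2 and 21.1 at day 9, and passed with 11 libraries (adjusted p 0.0384). The signs of Tgfb1, Tgfbr2, Smad2, Smad3 and Smad4, all within 0.06 of 0, turned when 1 library was left out, that of Tgfb1 also under quantile normalization and that of Tgfbr2 also with array weights.

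Of 31 ligands, receptors, SMADs and modulators of the pathway none passed (limma, 5 higher and 2 lower at an unadjusted p under 0.05, and 0 by limma-voom). Their median was 0.15, and 9 lay above and 3 below day 3 without overlap, against 14% and 18.4% of all genes. Without day 9 replicate 1 the median was 0.09 and these were 15 and 5, against 26% and 23.2%. In the fit to 11 libraries 4 were called higher and 2 lower (2.62% and 3.75% of all genes), and in that to 6 libraries 1 higher and 0 lower. The lowest was Thbs1, whose product frees latent TGF-β, at 111, 70.2 and 125 FPKM at day 3 and 64.8, 31.99 and 27.9 at day 9 (log2 change -1.34, adjusted p 0.177). Of 19 TGF-β target genes none passed either (limma, 3 higher and 1 lower at an unadjusted p under 0.05, and 0 by limma-voom), with a median of 0.18 against 0.74 in control skin, and without day 9 replicate 1 the median was -0.03. Vim, the intermediate filament of stromal cells and 1 of the 2 most abundant, stood at 348, 349.6 and 352 FPKM at day 3 and 338, 273 and 262 at day 9 (log2 change -0.28, adjusted p 0.548).

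Some growth factors of stromal and epithelial cells rose. Mdk (ENSMUSG00000027239, chr2:91929805-91932297), the gene of the heparin-binding factor midkine, stood at 3.02, 3.87 and 3.53 FPKM at day 3, 11.6 and 7.44 at day 6 and 24.4, 19.1 and 27.6 at day 9. The 3 days did not overlap and rose in order, and the change was 2.45 (SE 0.218, limma adjusted p 0.000375), a call that held without any 1 of the 6 libraries. In control skin Mdk rose by 3.66, to 52.7, 55.3 and 45.4 FPKM, above each irradiated library, and the difference of -1.21 passed in the fit to 11 libraries (adjusted p 0.0482) and not in that to 17 (0.216). The related gene Ptn, pleiotrophin, stood at 13.9, 15.2 and 12.8 FPKM at day 3 and 20.2, 24.2 and 20.8 at day 9 (log2 change 0.60, adjusted p 0.398), against 146, 139 and 80.05 in control skin at day 9 (difference -2.17, adjusted p 0.0317 with 11 libraries, 0.214 with 17). Pdgfb, which recruits pericytes, rose by 0.86 (adjusted p 0.0185), from 6.34, 6.13 and 7.56 to 14.6, 13.3 and 11.1 FPKM. With Mdk it made up the 2 of 21 growth factor genes that passed, in a list with a median of 0.01, which ran from -0.04 without day 9 replicate 1 to 0.24 without day 9 replicate 2. Wnt5a, a ligand of the non-canonical Wnt pathway, rose by 0.93 (adjusted p 0.0321), from 6.06, 4.76 and 5.46 to 15.1, 9.77 and 9.41 FPKM, the 1 of 19 Wnt pathway genes that passed (median 0.25, and 0.15 without day 9 replicate 2).

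The oxygen sensor gene Egln3, which low oxygen induces, stood at 66.2, 63.8 and 85.1 FPKM at day 3 and 186, 162 and 153 at day 9 and rose by 1.22 (limma adjusted p 0.0354). It was the 1 of 23 hypoxia and glycolysis genes that passed. The list did not follow it: its median was -0.07, with 3 without overlap in the higher direction and 7 in the lower, against 14% and 18.4% of all genes (11 lower without day 9 replicate 1, against 23.2%). In control skin Egln3 had a log2 change of -0.12 (limma adjusted p 0.788). The list had a median of -0.76 there, with 12 of the 23 lower (10.7% of all genes). The glucose carrier gene Slc2a1 had a log2 change of 0.29 in irradiated skin and -1.16 in control skin, a difference of 1.45 (adjusted p 0.043 with 11 libraries, 0.19 with 17). Genes outside these lists rose too. The glutathione transferase gene Gsto1 rose by 0.93 (adjusted p 0.0402), from 105, 85.9 and 109.9 to 182, 198 and 194 FPKM. Myl7, the light chain of atrial myosin, rose by 2.14 (adjusted p 0.00559), from 1.05, 0.521 and 0.463 to 7.73, 6.24 and 5.21 FPKM, against a log2 change of 0.26 in control skin (difference 1.88, adjusted p 0.0372 with 11 libraries, 0.187 with 17). Pyy, a peptide hormone gene, rose by 2.47 (limma adjusted p 0.0324), from 0.154, 0.108 and 0 to 2.66, 4.27 and 10.3 FPKM. Like Hbb-bt, Klk14, Krt25, Krt28 and Sprr3, it was under 1 FPKM in every day 3 library. These genes passed the filter on low values through day 9 alone, which favours rises among them. The calls of Egln3 (0.0652 to 0.142) and Gsto1 (0.0739 to 0.168) ended without any 1 of the 6 libraries and that of Pyy without any but day 9 replicate 1 (0.0926 to 0.13). Those of Pdgfb (0.0745 to 0.091) and Wnt5a (0.0551 to 0.12) ended without day 3 replicate 1, day 3 replicate 2 or day 9 replicate 2, and that of Wnt5a also without day 3 replicate 3 or day 9 replicate 1.

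Single genes of muscle and of the use of fatty acids fell. Trim63 (ENSMUSG00000028834, chr4:134315120-134329629), the ubiquitin ligase MuRF1 of muscle wasting, stood at 38.8, 34.4 and 22.7 FPKM at day 3, 62.3 and 12.97 at day 6 and 2.85, 4.95 and 4.62 at day 9 and fell by 2.67 (SE 0.478, limma adjusted p 0.026). Pdk4 (ENSMUSG00000019577, chr6:5483351-5496309), the kinase that turns cells from glucose to fatty acids, stood at 55.5, 28.9 and 33.6 FPKM at day 3, 75.2 and 16.1 at day 6 and 4.55, 4.99 and 5.98 at day 9 and fell by 2.66 (adjusted p 0.0212). Both had 1 day 6 library above every day 3 library and the other below them, and no day 9 library overlapped day 3. Mylk2, the myosin kinase of skeletal muscle, fell by 2.14 (adjusted p 0.0231), from 17.04, 29.9 and 14.8 to 2.83, 5.15 and 3.37 FPKM. Ucp3, a mitochondrial carrier of muscle, fell by 1.29, Adssl1, a muscle purine enzyme gene, by 1.29, and Cryab, a small heat shock protein gene abundant in muscle, by 1.44 (adjusted p 0.022, 0.0402 and 0.0483). Pctp, a lipid transfer protein gene, fell by 1.35 (adjusted p 0.0463).

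Mature muscle genes had lower means at day 9 beside these calls. All 18 tested genes of the list had a negative change (median -0.70), 8 without overlap (18.4% of all genes), and none passed (limma, 7 lower at an unadjusted p under 0.05 and 0 by limma-voom). Their summed FPKM was 3605 to 5925 in the day 3 libraries and 1753 to 3686 in the day 9 libraries, so the groups overlapped, and the median was -0.34 without day 9 replicate 1. The defining markers were far from 0 in each of these libraries. Acta1, the actin of skeletal muscle, stood at 1308, 1986 and 1589 FPKM at day 3 and 535, 1265 and 1248 at day 9 (log2 change -0.76, adjusted p 0.317), and Ckm, muscle creatine kinase, at 107, 179 and 98.4 at day 3 and 37.3, 81.3 and 71.1 at day 9 (log2 change -1.03, adjusted p 0.15). The part of muscle content in these falls was not tested. In control skin Trim63 fell by 2.28 and Pdk4 by 2.43, with differences of -0.40 and -0.23 that did not pass (adjusted p 0.833 and 0.9). The calls of Trim63 (0.0515 to 0.128), Adssl1 (0.0946 to 0.148), Cryab (0.0947 to 0.179) and Pctp (0.0919 to 0.173) ended without any 1 of the 6 libraries. That of Mylk2 (0.0598 to 0.0933) ended without any but day 3 replicate 3, that of Pdk4 (0.0515 to 0.104) without any day 3 library or day 9 replicate 2, and that of Ucp3 (0.0516 to 0.106) without day 3 replicate 1 or 3 or day 9 replicate 1 or 2.

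Control skin had medians of -0.41, 0.46 and 0.87 in the macrophage, dendritic cell and lymphocyte lists. In irradiated skin the macrophage and dendritic cell lists had medians below 0 and the lymphocyte list above 0. Of 26 monocyte and macrophage markers none passed (limma, 6 lower at an unadjusted p under 0.05 and 0 by limma-voom), with a median of -0.40 (-0.21 without day 3 replicate 2) and 8 below without overlap (18.4% of all genes). The complement gene C1qa of resident macrophages overlapped between days (log2 change -0.09, above 0 without day 3 replicate 2 or day 9 replicate 2), while outside the list the scavenger receptor gene Marco fell by 1.59 (adjusted p 0.0402), from 3.41, 8.28 and 1.86 to 0.645, 0.379 and 0.912 FPKM. The cytokine gene Il10, which restrains macrophages, fell by 1.24 (adjusted p 0.0358), from 6.87, 5.97 and 5.11 to 2.56, 1.61 and 1.75 FPKM. Of 19 monocyte and T cell chemokines none passed (limma, 7 lower at an unadjusted p under 0.05, 1 by limma-voom and 7 with the 6 libraries alone), with a median of -0.78 (-0.45 over all 22 with no filter) and 9 below without overlap (18.4% of all genes). Ccl6 stood at 475, 591 and 411 FPKM at day 3 and 161, 141 and 216 at day 9 (log2 change -1.51, adjusted p 0.138), and the most abundant of the list, Ccl8, overlapped (log2 change -0.15).

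Class II genes, which present antigen to T cells, held a wide spread at day 9. Cd74 stood at 101, 95.6 and 88.4 FPKM at day 3 and 46.7, 108 and 68.3 at day 9 (log2 change -0.43, limma adjusted p 0.578), and H2-Eb1 at 76.9, 74.7 and 71.1 at day 3 and 28.5, 67.2 and 39.1 at day 9 (log2 change -0.80, adjusted p 0.278). Day 9 replicate 1 was the lowest and replicate 2 the highest for both. Of the 11 tested Langerhans and dendritic cell markers none passed (limma, 1 higher and 3 lower at an unadjusted p under 0.05, and 0 by limma-voom), with a median of -0.43 that was -0.14 without day 9 replicate 1, -0.80 without day 9 replicate 2 and -0.07 over all 16 deposited markers with no filter. All 13 tested T, NK and gamma-delta T cell markers (22 in the table) had a positive change, with a median of 0.73 (0.37 over all 22 with no filter). Of these 8 lay above without overlap (14% of all genes). None passed (limma, 5 at an unadjusted p under 0.05, 0 by limma-voom and 4 with the 6 libraries alone). Low markers can pass the filter through day 9 alone, as Trac did, which favours positive changes among those tested. Trac, the constant chain of the T cell receptor, stood at 0.347, 0.183 and 0.1096 FPKM at day 3 and 1.17, 0.936 and 1.698 at day 9 (log2 change 0.89, adjusted p 0.485), and Gzma, a granzyme gene of killer cells, at 4.65, 1.76 and 2.92 at day 3 and 11.1, 7.72 and 8.73 at day 9 (log2 change 1.36, adjusted p 0.206). Of 10 mast cell genes none passed (limma, 1 higher at an unadjusted p under 0.05 and 0 by limma-voom), with a median of 0.13 (0.03 to 0.34 without 1 library, 0.09 over all 11 with no filter) against -0.85 in control skin. The chymase gene Cma1 stood at 36.6, 51.1 and 57.9 FPKM at day 3 and 35.6, 65.8 and 75.4 at day 9 in irradiated skin and fell in control skin (log2 change -1.94, adjusted p 0.0162), a difference of 2.17 (adjusted p 0.0399 with 11 libraries, 0.219 with 17). The calls of Marco (0.0745 to 0.181) and Il10 (0.0797 to 0.163) ended without any library but 1, day 3 replicate 3 for Marco and day 9 replicate 1 for Il10.

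Among the genes that fell, those of lowest p belonged to none of these groups. Bambi-ps1, a processed copy of the TGF-β decoy receptor gene Bambi (ENSMUSG00000081219, chr2:122466935-122467526), stood at 9.38, 8.54 and 8.08 FPKM at day 3, 2.86 and 3.47 at day 6 and 2.71, 2.28 and 2.51 at day 9 and fell by 1.46 (SE 0.181, limma adjusted p 0.00524). Fragments of such a copy are hard to tell from those of its parent gene, and Bambi itself was below 2 FPKM and had a log2 change of 0.38 (adjusted p 0.22). Ino80c, a subunit gene of a chromatin remodeller, fell by 0.53 (adjusted p 0.00693), from 18.9, 17.5 and 19.4 to 12.4, 12.1 and 13.3 FPKM. Dcxr, a carbonyl reductase gene, fell by 0.83 (adjusted p 0.00693), from 26.8, 31.7 and 27.2 to 15.3, 13.9 and 17.6 FPKM. The predicted gene Gm43464 fell by 0.89 (adjusted p 0.0107), at levels near 1 FPKM and below. The calls of Bambi-ps1, Ino80c and Dcxr held without any 1 of the 6 libraries, and that of Gm43464 ended without day 9 replicate 2 (0.0542).

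**Figure D3:**
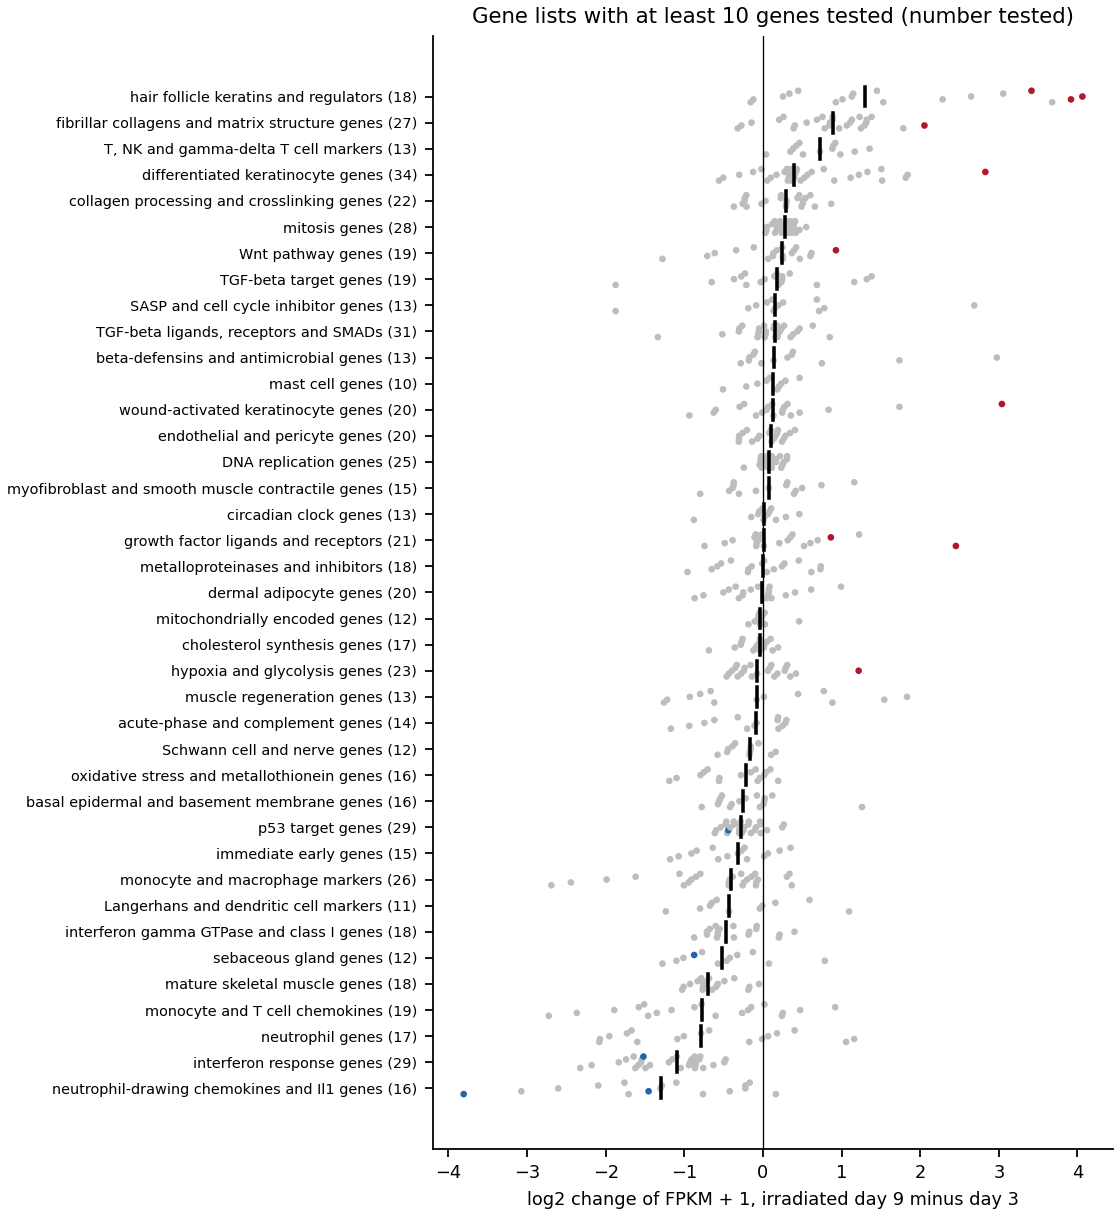
The log2 change of FPKM + 1, irradiated day 9 minus day 3, of every tested gene in each list with at least 10 tested genes (number tested in parentheses), with a bar at the list's median. Red and blue points are genes called higher and lower, and the medians run from -1.30 for neutrophil-drawing chemokine and Il1 genes to 1.30 for hair follicle genes.

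The same days were also compared in control skin, where 2550 of the 14099 genes passed between days 3 and 9 (18.1%), 1037 of them higher (7.36%) and 1513 lower (10.7%). Of the 163 genes called in irradiated skin 80 were called in control skin too, each in the same direction, and 139 had a control change of the same sign. These 80 are 49.1% of the 163 and 3.14% of the 2550. Across the 14099 genes, which are not independent replicates, the changes in irradiated and control skin had a Pearson's r of 0.600 and a Spearman's rho of 0.511. The comparisons share no library. The hair, matrix, muscle and neutrophil-drawing chemokine lists had medians of the same sign in both (1.30 and 1.71, 0.89 and 2.11, -0.70 and -0.79, and -1.30 and -1.26), whereas the interferon list had -1.09 in irradiated and -0.14 in control skin and the mitosis list 0.28 and -0.40.

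Whether a gene's change differed between irradiated and control skin was tested as an interaction. In the fit to 17 libraries 0 genes passed (limma, smallest adjusted p 0.0949, 2013 at an unadjusted p under 0.05, and 0 by limma-voom), so no call above is shown by that fit to be particular to irradiated skin. In the fit to the 11 libraries of days 3 and 9, added after seeing the data, 206 passed (1.46%), 84 with a more positive (0.596%) and 122 with a more negative (0.865%) change in irradiated skin. Of the lists with 2 or more of these, there were 9 of 28 mitosis genes, 3 of 7 red blood cell and platelet genes, 3 of 23 hypoxia genes, 3 of 17 cholesterol synthesis genes and 2 of 10 mast cell genes in the positive direction. In the negative direction they were 4 of 21 growth factor genes, 2 of 22 collagen processing genes, 2 of 29 p53 targets and 2 of 13 senescence-secreted and cell cycle inhibitor genes. Of the 29 interferon genes none passed in that fit (limma), although Daxx outside the list did (difference -1.20, adjusted p 0.043). Leaving 1 library out of the fit to 17 gave 16 genes past the interaction test without control day 9 replicate 3, 6 without irradiated day 9 replicate 1, 1 without irradiated day 3 replicate 2 and 0 otherwise. The plot of irradiated against control change shows the globins with a rise in irradiated skin and control changes of -0.56 to -0.40. The called rises of Pyy, Myl7 and Egln3 also came with small control changes (0.06, 0.26 and -0.12).

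**Figure D4:**
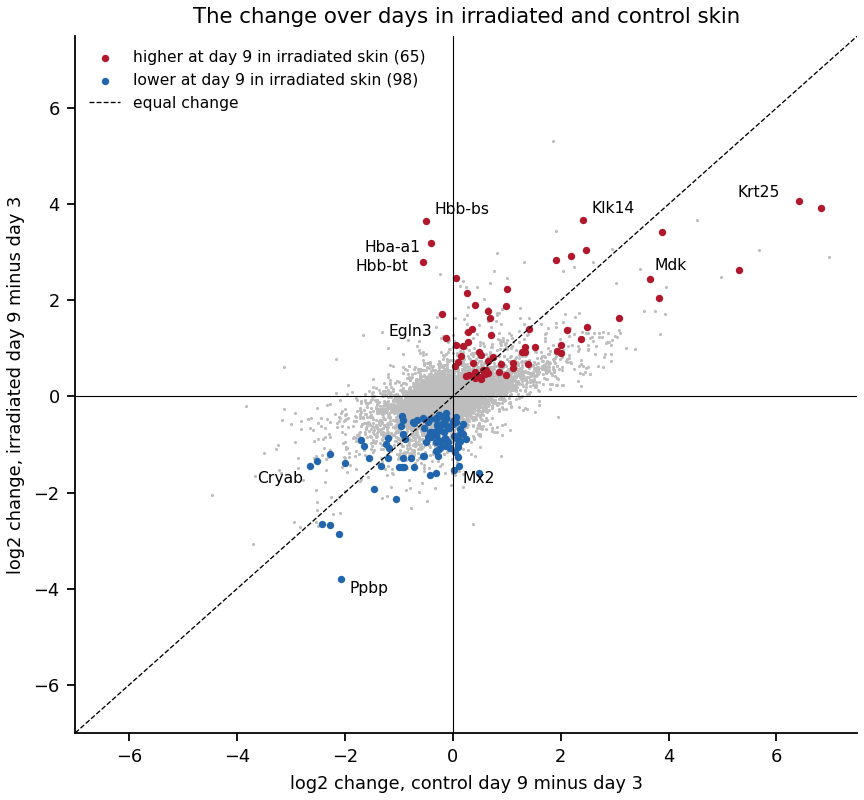
The log2 change from day 3 to day 9 in control skin (horizontal) against that in irradiated skin (vertical) for the 14099 genes, with the 65 higher genes in red, the 98 lower in blue and a dashed line of equal change. The globins lie near 0 on the horizontal axis and between 2.80 and 3.66 on the vertical, and Krt25, Mdk and Cryab lie where the change in control skin is the larger.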

How the data were processed

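RNA-seq libraries made with Smart-Seq2, which does not mark strand, were measured in 17 skin samples. Reads were aligned with HISAT2 2.2.1 to mm10, per the submitters' processing notes, and the authors deposited FPKM values per gene. Neither the labels nor the file header name the counting tool or annotation. Groups came from the labels of each sample. limma 3.58.1 in R 4.3.3 was run on log2(FPKM + 1), with 7 group means, an intensity trend and 10 residual degrees of freedom, and was tested on simulated data. Fragments were recovered from FPKM with GENCODE M21 gene lengths (90.9% of non-zero values of genes with a length came out within 0.01 of a whole number) and gave the depth and a limma-voom fit. FPKM is relative to each library's total, so a large gene can lower the others.

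The comparison, the members and the 42 gene lists (821 of 823 symbols matched) were chosen with earlier results of these data known. The rule for named genes took the 12 largest rises and the 12 largest falls among protein-coding genes that passed without overlap with a mean of at least 5 FPKM, up to 4 passing members of each list in its larger direction and 2 in the other, the 2 most abundant members of lists with none, the 4 genes of lowest p in each direction, and 10 genes of the TGF-β pathway. Of the 104 genes it gave, 62 are given with values. Another 38 were named after their values were seen (Isg15, Ifit1, Irf7, Helz2, Daxx, Eif2ak2, Znfx1, Tlr3, Rsad2, Cdkn1a, Mdm2, Ccng1, Pf4, Cxcl2, Il1b, Mki67, Aurkb, Top2a, Trac, Gzma, Il10, Marco, Col3a1, Col12a1, Lum, Aspn, Ptn, Slc2a1, Tmprss11b, Krt10, Krt73, Flg, Gsto1, Stmn1, Ckm, Myl7, Sprr3 and Sprr2b).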

Additional observations from a re-analysis of the deposited data

How the results depend on the processing

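The 49 named genes that passed kept their direction under every alternative run, and 8 of them (Klk14, Hba-a1, Hbb-bt, Mdk, Tmprss11e, Tmprss11b, Bambi-ps1 and Myl7) passed under all. The count of 163 genes stayed within 1.5 times under a pseudocount of 0.1 (132, with 52.3% higher against 39.9%), 2 other filters, median-of-ratios or nuclear-gene scaling, robust moderation and limma-voom (127). It was 278 with a pseudocount of 5 (28.1% higher), 77 with no filter (more genes tested), 303 after quantile normalization, 739 with the 6 libraries alone, 898 without days 0 and 6, 3507 with array weights, and 16 to 105 without 1 irradiated library. The cause was not tested. For the interaction, array weights gave 2605, leaving out days 0 and 6 gave 206, and leaving out 1 library gave 0 to 16. The labels do not say that replicate numbers pair the days. Same-number correlations of deviations were -0.0272, 0.0367 and -0.0193, against -0.0553 to 0.086 for unlike numbers. With 3 libraries per day these cannot decide whether samples were paired. With a replicate block 148 genes passed over 17 libraries and 48 over 6. Without 1 library the log2 change was -0.132 to 0.0167 for Tgfb1 (0.0109 after quantile normalization), -0.0693 to 0.107 for Tgfbr2 (-0.0149 with array weights), -0.0184 to 0.0807 for Smad2, -0.114 to 0.00214 for Smad3, -0.0139 to 0.0375 for Smad4 and -0.193 to 0.0875 for C1qa. Means of 3 libraries limit the precision, and genes under 1 FPKM were not tested.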

Other observations

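Some gene groups not described above held genes far apart between days that did not pass, and these genes were chosen after their values were seen. Mmp12, the elastase of macrophages, went from 4.39 ± 0.417 FPKM at day 3 to 35.5 ± 12.8 at day 9 (SD, n = 3, log2 change 2.69, limma adjusted p 0.0656). It did not overlap between days. Hmox1, the haem-degrading enzyme, stood at 379.7 ± 66.2 and 176 ± 26 FPKM (-1.10, limma adjusted p 0.0552), and the metallothionein gene Mt1 at 349 ± 92 and 151 ± 30.3 (-1.19, limma adjusted p 0.202). Defb3, an antimicrobial peptide gene of injured epidermis, stood at 2.62 ± 2.04 and 26.1 ± 9.41 FPKM (2.98, limma adjusted p 0.415). Col7a1, the anchoring fibril gene of the basement membrane, stood at 9.13 ± 1.22 and 23.5 ± 5.08 FPKM (1.26, limma adjusted p 0.0875), while the basal keratin gene Krt14 overlapped (0.02).

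The lists of dermal adipocyte, cholesterol synthesis and basal epidermal genes showed small medians between days in irradiated skin and larger ones in control skin. In control skin the test called 18.1% of all genes, 7.36% higher and 10.7% lower, against 1.16% in irradiated skin. The median of 20 dermal adipocyte genes was -0.01 in irradiated and -1.29 in control skin, where 10 fell, and ran from -0.29 without day 9 replicate 3 to 0.25 without day 9 replicate 1. That of 17 cholesterol synthesis genes was -0.04 and -0.86, with 12 falls in control skin (-0.12 to 0.07 in irradiated skin without 1 library), and that of 16 basal epidermal and basement membrane genes -0.26 and -1.33, with 8 falls and 1 rise (-0.38 to -0.18 in irradiated skin without 1 library). None of the genes in these 3 lists passed in irradiated skin (limma, 2 higher and 4 lower at an unadjusted p under 0.05, and 0 by limma-voom). The difference between irradiated and control skin passed for 3 of the 17 cholesterol synthesis genes in the fit to 11 libraries and for 0 of the adipocyte and basal genes (limma), and for none of the 3 lists in the fit to 17. The 6 melanocyte pigment genes tested (10 in the table) had a median of 0.86 in irradiated and 1.05 in control skin, and 5 had a positive change. None passed in irradiated skin, and 3 lay above and 1 below without overlap (14% and 18.4% of all genes). The median was 1.25 without day 9 replicate 1 and 0.51 over all 10 with no filter. The most abundant, Mlana and Dct, overlapped between days (0.54 and 1.18).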
